A study of Mus musculus with 10 samples.

Results

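Natural killer cells (NKC) grown from the spleens of wild-type (WT) mice were compared after culture in IL-15 and after culture in IL-2. The comparison rested on 5 of the 10 arrays of the series, WT IL-15 arrays 1 and 2 and WT IL-2 arrays 1, 2 and 3. The other 5 arrays hold NKC of Runx3-/- (KO) mice in the same cultures. The WT mice were ICR, Runx3 +/+, 6 weeks of age and labelled male or female, and the study's methods call the samples of a group biological repeats. The NKC had been purified by negative selection, with a sort for DX5 added in the study's methods, and kept for 7 days with recombinant human IL-2 at 1000 u/ml or with recombinant mouse IL-15, whose dose the sources used here do not give clearly. The cultures therefore differed in the cytokine, in the species it came from and in the animals. RNA of each culture was measured as log2 signal per probe set. Each gene was read from its brightest probe set with a single gene symbol, and genes were tested if this reading was log2 5 or more on at least 2 of the 10 arrays. Of 18194 genes, 9391 passed, and 281 of these on chromosomes X and Y were left out, which left 9110 genes.

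IL-2 and IL-15 act on NKC through the same signalling chains. Il2rb encodes the beta chain that both receptors share, and a common gamma chain, encoded on chromosome X and so not tested here, completes them. Each cytokine also has its own alpha chain: Il2ra raises the affinity for IL-2 on the responding cell, and Il15ra binds IL-15 and mostly presents it from a neighbouring cell. The shared chains activate JAK1, JAK3 and STAT5, and STAT5 induces feedback inhibitors such as Cish. IL-15 is known for keeping resting and developing NKC alive, and high doses of IL-2 for making NKC grow and arm themselves.

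Some features of the arrays bear on every value below. Before deposit, the mean of each numbered WT and KO pair had been set equal within a cytokine, so the spread between arrays is smaller than it was between animals. The residual variance was therefore doubled before the test, but the error of a culture's mean cannot be recovered, and p-values may still be too small. The sex of the animals moved with the culture: Xist, the female-specific RNA of the inactive X chromosome, was at log2 14.48 and 14.28 in WT IL-15 and between 4.74 and 5.37 in WT IL-2, and the Y-linked gene Eif2s3y was at 2.43 and 2.41 in IL-15 and between 8.30 and 9.17 in IL-2. Sex and culture cannot be told apart in any difference given here. The level of Actb at its 3 prime end exceeded that at its 5 prime end by 1.73 and 1.89 (log2) in IL-15 and by 1.54 to 1.58 in IL-2, and a spiked-in control RNA (bioB) averaged 7.78 and 7.63 in IL-15 and 8.13 to 8.15 in IL-2. The part of these in the results was not tested.

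The cells carried the markers of NKC in both cultures. According to the study's methods, almost all cells were NKC positive for the receptor NKp46 when culture ended. Over the 12 NKC markers with a probe set, the summed level was log2 17.32 to 17.59 in IL-2 and 17.46 to 17.50 in IL-15. Itga2, which encodes the DX5 antigen itself, was dim at a mean of 2.2 in both cultures on its probe set. Many defining genes of other cells were below log2 5 in both cultures: Cd79a and Pax5 of B cells, Cd4, Cd8a and Cd5 of T cells, C1qa and Mertk of macrophages, Siglech, Xcr1 and Cd209a of dendritic cells, S100a8 and Mpo of granulocytes, and Fcer1a, Ms4a2 and Tpsab1 of mast cells. Other members of these lists were bright enough to test. Of the markers with a probe set, these were 8 of 15 for T cells, 8 of 17 for dendritic cells and 7 of 16 for macrophages. For B and plasma cells they were 3 of 15, for granulocytes 2 of 15, and for mast cells and basophils 4 of 13. Of the markers bright enough to test, 4 of 11 were called for NKC (all higher in IL-15), 1 of 8 for T cells (Bcl11b, higher), 2 of 3 for B and plasma cells (Ighm, higher by 1.55, and Sdc1, lower by -2.10), 3 of 8 for dendritic cells (Batf3, Fscn1 and Bst2, lower), 3 of 4 for mast cells and basophils (Kit and Cpa3, higher, and Mcpt8, lower), 1 of 4 for stroma and endothelium (Pecam1, lower), 0 of 7 for macrophages, 0 of 2 for granulocytes and 0 of 2 for red cells and platelets. The calls of Ighm and Cpa3 were lost under other settings. The summed levels of the T cell markers (12.99 to 13.28 in IL-2, 13.69 to 14.12 in IL-15) and of the B and plasma cell markers (9.08 to 9.42, then 9.95 to 10.80) did not overlap and lay above IL-2 in IL-15. Those of the dendritic cell markers (11.50 to 12.16, then 9.83 to 10.36), of the stromal markers (14.16 to 14.60, then 13.35 to 13.56) and of the granulocyte markers (11.18 to 13.86, then 9.54 to 10.11, with Ctsg as the brightest, adjusted p = 0.0748) did not overlap either and lay below. The macrophage sums overlapped (8.44 to 10.86, then 8.96 to 9.59), with 6 of the 7 members tested below 0 and a median difference of -2.66. The sums of the mast cell and basophil markers overlapped too (12.93 to 14.74, then 13.83 to 14.21). In a bulk culture, fewer cells of a type and less RNA per cell cannot be told apart, and the part of other cells in the results was not tested.

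Growth in IL-15 instead of IL-2 went with a broad difference in RNA levels. Of 9110 genes, 2344 (25.7%) were called, that is, they had an adjusted p under 0.05 in limma and differed by at least 1.5-fold. Of the genes tested, 1438 (15.8%) were higher and 906 (9.95%) were lower in IL-15. The median difference of all genes tested was 0.18 (log2, IL-15 minus IL-2, as throughout), against which the differences of gene groups should be read. Higher genes were thus 61.3% of the calls, but 49.2% when each array was centred on its median and 46.9% after quantile normalization. At least 4-fold apart were 877 genes, 523 of them higher and 354 lower in IL-15. The WT arrays of the cultures did not overlap in 6374 genes (70%), which include all 2344 called genes. With 3 arrays against 2, an exact permutation test of a single gene cannot go below p = 0.1, so all calls rest on the variance that limma shares across genes. The number of calls depended on single arrays: 374 genes were called without IL-15 array 1, 363 without IL-15 array 2 and 979 without IL-2 array 1. A call is said below to have held where it was made in all 5 fits that each left out 1 array. Lost without either IL-15 array means lost in both fits that left out 1 of them. A call held in 263 genes (2.89% of those tested), 140 higher and 123 lower in IL-15. With no filter on low values, 17567 genes entered the adjustment of p, 1281 were called, and 94 of the 185 called genes chosen by the naming rule lost their call.

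**Figure D1:**
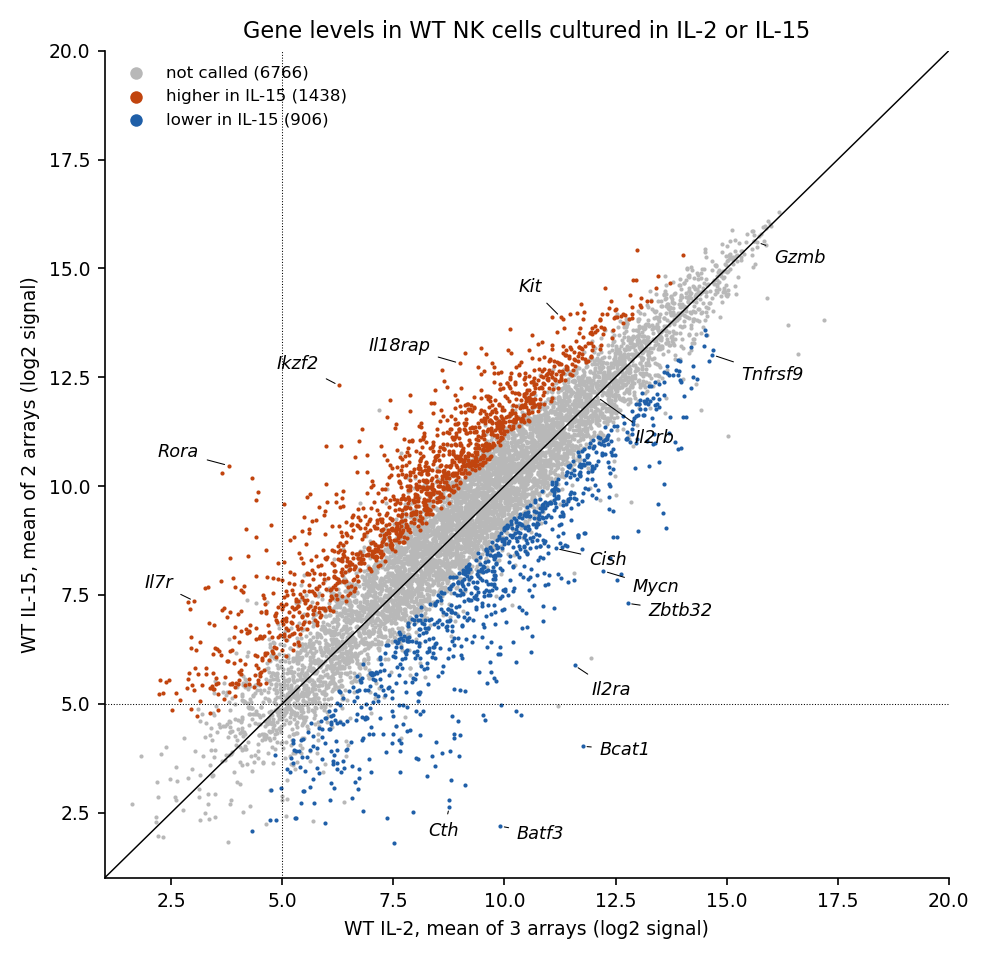
Mean log2 signal of each of the 9110 genes tested in WT NKC in IL-2 (x axis, 3 arrays) and in IL-15 (y axis, 2 arrays), coloured by call. The solid line marks equal levels and the dotted lines mark log2 5. Genes called higher (1438) lie above the line and genes called lower (906) below it, with Il2rb and Gzmb close to it.

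Of the receptor genes for the 2 cytokines, the alpha chain of the IL-2 receptor differed most. Il2ra was at log2 11.73, 11.61 and 11.40 in IL-2, against 5.43 and 6.33 in IL-15. It was lower in IL-15 by -5.70 ± 0.42 (SE, adjusted p = 0.00263), among the lowest differences of all genes. The shared chain Il2rb was at 11.74, 11.84 and 12.67 in IL-2, against 11.87 and 12.23 in IL-15, and its groups overlapped (-0.04 ± 0.46, adjusted p = 0.96, with another probe set at 0.22). Il15ra was near the detection floor at 5.35 to 5.67 in IL-2 and 5.36 and 5.49 in IL-15 (-0.06 ± 0.28, adjusted p = 0.883), and a second, dimmer probe set of Il15ra was higher in IL-15 by 0.66. Neither Il2rb nor Il15ra passed the test, and both had a difference near 0.

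Several receptors for other cytokines were higher in IL-15. In the whole receptor list, which includes Il2ra, Il2rb and Il15ra, 8 of 16 genes tested were higher and 3 (Il2ra, Il12rb1 and Il21r) were lower, with a median difference of 1.25. Il7r, the alpha chain of the IL-7 receptor, was below log2 5 in IL-2 at 2.68, 3.60 and 2.76 and was at 7.27 and 7.45 in IL-15, at least 5.13-fold higher (adjusted p = 0.00369). Both chains of the IL-18 receptor were higher: Il18rap by 3.83 ± 0.36, from 8.71 to 9.35 in IL-2 to 12.65 and 12.99 in IL-15, and Il18r1 by 3.10 ± 0.34 (adjusted p = 0.00326 and 0.00453). Il12rb1, a chain of the IL-12 and IL-23 receptors, was lower by -2.001 ± 0.285 and Il21r by -1.25 ± 0.30 (adjusted p = 0.00723 and 0.0264). Ifngr1, which binds interferon gamma, was higher by 1.94 ± 0.26 (adjusted p = 0.00603). The calls of Il2ra, Il7r, Il18rap and Il18r1 held. Those of Ifngr1 and Il12rb1 were lost without either IL-15 array, where their differences ranged from 1.89 to 1.99 and from -2.09 to -1.91 over the 5 fits, and that of Il21r was lost without any array but IL-2 array 3.

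The feedback inhibitor Cish and the STAT5-induced kinase gene Pim1 were the genes of JAK-STAT signalling that were lower in IL-15. Cish was at 11.22, 10.95 and 11.28 in IL-2, against 8.22 and 8.91 in IL-15 (-2.59 ± 0.37, adjusted p = 0.00742). Pim1 was lower by -1.34 ± 0.35 (adjusted p = 0.0361). Higher in IL-15 were Jak2 (2.74 ± 0.33), Stat4 (2.47 ± 0.40), Jak1 (1.75 ± 0.29), Socs4 (2.01 ± 0.54) and the survival gene Bcl2 (1.28 ± 0.33), with adjusted p between 0.00517 and 0.038. In all, 5 of 22 genes of this list were higher and 2 lower, with a median of 0.47. This called share of 31.8% stood beside 25.7% of all genes tested, 15.8% higher and 9.95% lower. Socs2 (-0.75 ± 0.46), Socs3 (0.55 ± 0.37) and Mcl1 (0.93 ± 0.31) did not pass, and Socs1 was too dim to be tested. Other probe sets of Socs4 and Bcl2 differed in the opposite direction, by -0.87 and -0.85, and with the mean of a gene's probe sets the calls of Socs4 (0.39), Bcl2 (0.70) and Pim1 (-0.86) were lost. The calls of Cish and Jak2 held. Pim1 lost its call without any 1 of the 5 arrays (-1.54 to -1.13), Stat4 and Jak1 without either IL-15 array (2.33 to 2.73 and 1.62 to 1.88), and Socs4 and Bcl2 without any array but IL-2 array 2 (1.80 to 2.39 and 1.15 to 1.43).

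**Figure D2:**
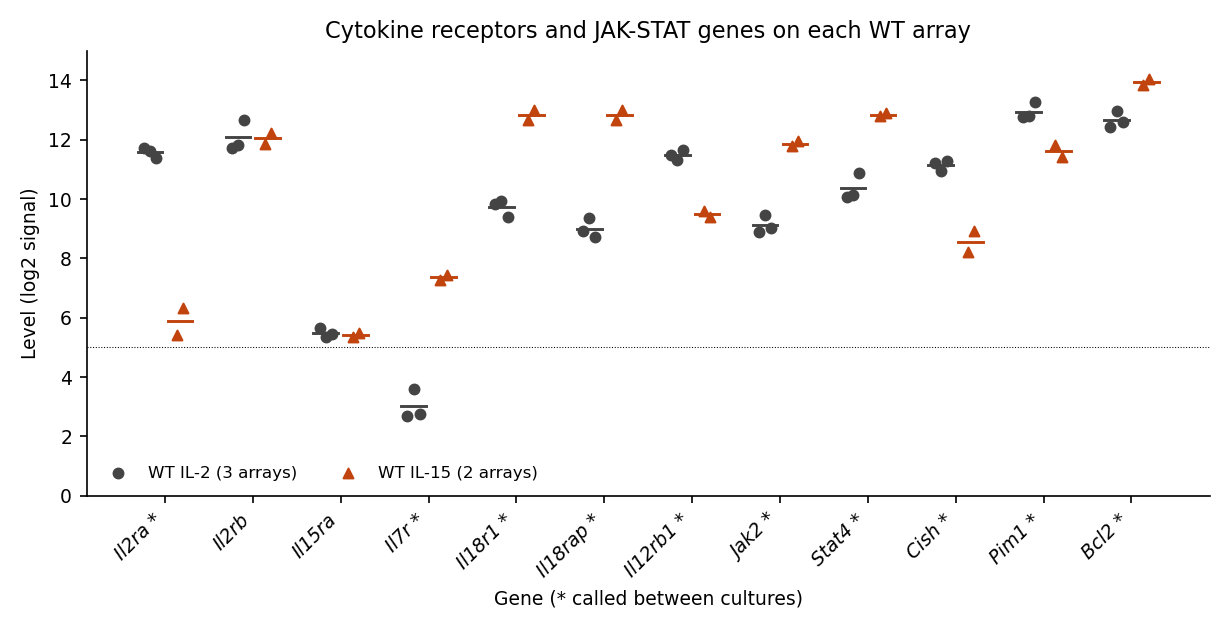
Log2 signal of 12 cytokine receptor and JAK-STAT genes on each WT array, with circles for IL-2, triangles for IL-15, bars for the group means and a dotted line at log2 5. Il2ra lies above 11 in IL-2 but at 5.43 and 6.33 in IL-15, Il2rb and Il15ra overlap, and Il7r and both IL-18 receptor chains lie higher in IL-15.

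STAT5 binds palindromes of the form TTCNNNGAA. The promoter of Cish is shown because Cish was the lower gene of the list whose promoter holds this form. It is taken from the RefSeq table of mouse promoters (GRCm38.p6, 250 bases before to 50 after the start), lies on the plus strand at chr9:107296409-107296708 and holds 2 matches, in capitals.
Cish: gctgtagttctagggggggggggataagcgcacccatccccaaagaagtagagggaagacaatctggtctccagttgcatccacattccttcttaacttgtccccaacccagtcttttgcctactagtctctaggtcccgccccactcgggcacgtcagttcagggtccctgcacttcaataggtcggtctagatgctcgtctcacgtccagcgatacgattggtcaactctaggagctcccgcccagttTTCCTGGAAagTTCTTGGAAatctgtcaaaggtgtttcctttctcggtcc
TTCNNNGAA, which reads the same on both strands, was found in 8.3% of all 32851 promoters and in 8.24% of the 7472 tested genes with a promoter in the table. A match describes letters and not a bound site.

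The 15 highest differences ran from 4.43 for Edaradd to 6.68 for Rora. Among them, the nuclear receptor gene Rora was at 3.40, 4.76 and 3.21 in IL-2, against 9.995 and 10.94 in IL-15, at least 44.3-fold higher. Ikzf2, which encodes the Ikaros family factor Helios, was at 5.81 to 6.65 in IL-2, against 12.40 and 12.23 in IL-15 (6.04 ± 0.40, adjusted p = 0.00263). Also among them were the cyclic AMP phosphodiesterase gene Pde4d (4.94 ± 0.44), Lyst, needed for the trafficking of lysosome-related granules (4.61 ± 0.27), the estrogen receptor gene Esr1 (at least 10.2-fold) and the glucocorticoid receptor gene Nr3c1 (4.54 ± 0.66). Of the 15, the calls of all but Phactr3 and Nr3c1 held. Phactr3 was lost without IL-15 array 2 (5.13 to 6.61 over the 5 fits) and Nr3c1 without either IL-15 array (4.21 to 5.03).

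At the other end stood Bcat1, which starts the breakdown of branched-chain amino acids in the cytosol. It was at 12.54, 11.34 and 11.41 in IL-2, against 3.23 and 4.82 in IL-15, at least 109-fold lower (adjusted p = 0.0035). Batf3, an AP-1 type factor, was at 9.79 to 10.06 in IL-2 and 1.59 and 2.79 in IL-15, at least 29.9-fold lower. The cystathionine gamma-lyase gene Cth, at 8.33, 8.47 and 9.47, was at 2.66 and 2.60 in IL-15. Zbtb32, a repressor induced in activated lymphocytes, was at 11.97 to 13.65 in IL-2 and 7.72 and 6.90 in IL-15 (-5.47 ± 0.70, adjusted p = 0.00567). The stress-induced factor gene Atf3 was at least 30.3-fold lower, the sphingosine-1-phosphate receptor gene S1pr3 at least 7.7-fold and the desaturase-like gene Fads3 at least 5.71-fold. Of the 15 lowest, the calls of all but Shmt1 held, and Shmt1 was lost without IL-2 array 1 (-6.57 to -4.27).

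**Figure D3:**
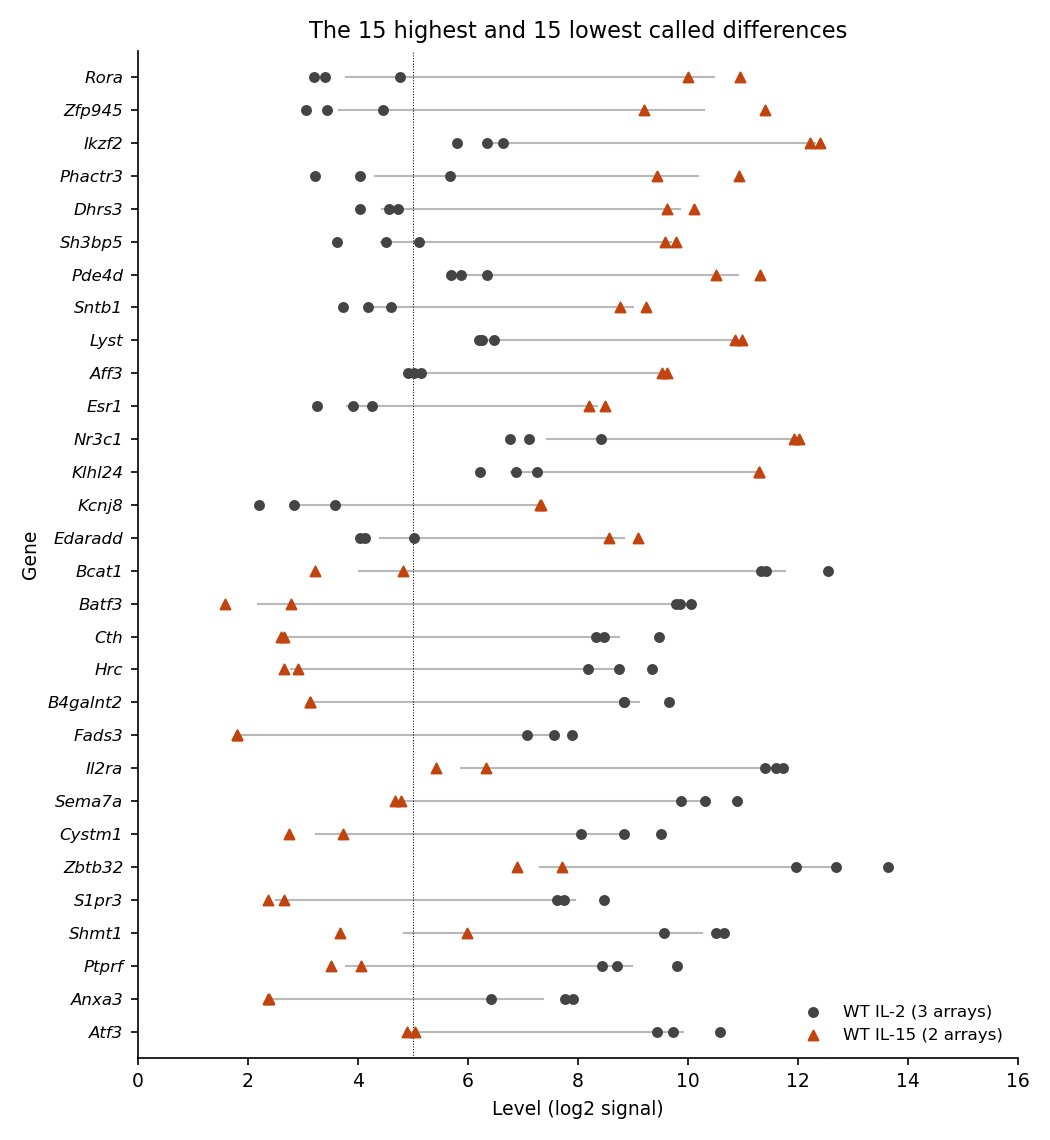
Log2 signal on each WT array of the 15 genes with the highest and the 15 with the lowest called differences, with circles for IL-2, triangles for IL-15, a grey line joining the group means and a dotted line at log2 5. The groups do not overlap in any of these genes, which were chosen for the size of their difference, and in 22 of the 30 the dimmer culture has a mean below log2 5.

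Transcription factor genes followed a mixed pattern. Of 38 lymphocyte factors tested, 12 were higher and 5 lower in IL-15, with a median of 0.81. After Rora and Ikzf2, the highest were Klf3 (6.75, 7.58 and 7.54 in IL-2, 10.93 and 10.49 in IL-15, 3.42 ± 0.44) and Runx1 (6.46, 6.99 and 7.58, then 10.42 and 9.83, 3.12 ± 0.51), with adjusted p of 0.00567 and 0.0103. After Zbtb32, the lowest were Ikzf4 (-2.38 ± 0.41), Nfil3, needed for NKC development (-1.93 ± 0.39), and Irf8 (-1.57 ± 0.42). Runx3, the gene the series is about, was at 11.31, 11.57 and 12.06 in IL-2 and 12.45 and 12.51 in IL-15, which did not pass the test (0.83 ± 0.37, adjusted p = 0.14). The NKC-defining factors Eomes (-0.06 ± 0.32, adjusted p = 0.897) and Tbx21 (1.15 ± 0.36, adjusted p = 0.0563) did not pass either. A second, dimmer probe set of Eomes was lower in IL-15 by -1.005. Among 28 AP-1, NF-kB and NFAT genes, Fosl1 joined Batf3 and Atf3 as lower (-3.72 ± 0.36, adjusted p = 0.00326), and 5 were higher, led by Bach1 (2.63 ± 0.36) and Maf (2.18 ± 0.35). The called share of this list, 28.6%, was near the 25.7% of all genes tested. The calls of Klf3, Batf3, Atf3 and Fosl1 held. Without IL-15 array 1 Runx1 was lost (2.82 to 3.41), without IL-15 array 2 Bach1 (2.44 to 2.80), without either Ikzf4 (-2.63 to -2.13) and Maf (1.99 to 2.37), Nfil3 (-2.15 to -1.74) also without IL-2 array 1, and Irf8 (-1.83 to -1.30) without any array but IL-2 array 2.

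Genes of immature NKC and group 1 innate lymphoid cells were largely on the higher side. Of 18 tested, 9 (50%) were higher and 0 lower, with a median of 1.90, beside 15.8% higher among all genes tested. There were 8 higher and 1 lower after centring, and 8 and 0 after quantile normalization. Kit, the stem cell factor receptor, was at 11.52, 10.84 and 11.43 in IL-2, against 14.03 and 13.74 in IL-15 (2.62 ± 0.38, adjusted p = 0.00742). Cd27, a TNF receptor family member lost as NKC mature, was at 7.81, 7.57 and 7.87 and at 10.22 and 10.18 (2.45 ± 0.28, adjusted p = 0.00473). Cxcr6 was higher by 2.74 ± 0.75 (adjusted p = 0.0395), a call that was absent under both other scalings of the arrays. Of 12 genes of mature NKC, 0 were higher and 1 (8.33%), Irf8, was lower, a share below the 9.95% lower among all genes tested. Under each of the other scalings 3 were lower. Klrg1, a receptor of mature NKC, was at 13.13, 12.36 and 11.99 in IL-2, against 9.52 and 10.95 in IL-15, and passed the test only under other settings (-2.26 ± 0.70, adjusted p = 0.0545 here, 0.0478 after centring and 0.0473 after quantile normalization). The calls of Il7r and Cd27 held, Kit lost its call without IL-15 array 1 (2.41 to 2.76) and Cxcr6 without any array but IL-2 array 3 (2.18 to 3.15). Markers of helper-like innate lymphoid cells differed in both directions. Of the 5 tested, Rora, Il7r and Gata3 were higher and Lta was lower, although the mean of Lta was below log2 5 in both cultures. Under each of the other scalings 3 were higher and 2 lower. The summed levels of these markers overlapped, at 12.15 to 13.18 in IL-2 and 11.42 to 12.29 in IL-15. Not tested were Il5, Il13, Ccr6 and Il17rb, which stayed below log2 5. The call of Rora held, that of Lta was lost without either IL-15 array (-2.66 to -2.04), and that of Gata3 was lost without any array but IL-2 array 3 (1.23 to 1.62).

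NKC receptors that trigger killing were higher or did not pass. Of 26 activating receptors and adaptors, 7 were higher and 0 lower, with a median of 0.96. Cd2, an adhesion and costimulatory receptor, was at 9.39, 9.41 and 9.61 in IL-2, against 12.39 and 12.74 in IL-15 (3.10 ± 0.29, adjusted p = 0.00326). Ncr1, which encodes NKp46, was at 9.48, 10.11 and 9.15 and at 11.80 and 12.34 (2.49 ± 0.47, adjusted p = 0.0145). Klrk1, which encodes NKG2D, was higher by 1.83 ± 0.42 (adjusted p = 0.0237), Cd7 by 2.91 ± 0.71 and Klrb1f by 3.17 ± 0.67. Only Cd2 of these held. The calls of Ncr1 (2.22 to 2.76), Klrk1 (1.57 to 2.02) and Cd7 (2.43 to 3.33) were lost without either IL-15 array, the first pair also without IL-2 array 1 and Cd7 also without IL-2 array 3. Klrb1f was lost without IL-15 array 2 or IL-2 array 1 (2.54 to 3.79). Under both centring and quantile normalization the higher count stayed at 7, and 2 and 1 members then became lower.

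Inhibitory receptors split by gene. Of 15 tested, 5 were higher and 1 lower. Klre1, a lectin-like receptor, was at 9.07, 9.25 and 9.21 in IL-2, against 11.72 and 11.83 in IL-15 (2.60 ± 0.26, adjusted p = 0.00365), and this call held. Klrc1, which encodes NKG2A, was higher by 2.47 ± 0.50 and its partner Klrd1 (CD94) by 1.29 ± 0.32. Havcr2, which encodes the checkpoint receptor TIM-3, was at 13.15, 11.01 and 13.40 in IL-2, against 9.24 and 8.42 in IL-15 (-3.69 ± 1.001, adjusted p = 0.0382). Klrc1 was lost without either IL-15 array or IL-2 array 1 (2.24 to 2.79), and Klrd1 (1.13 to 1.42) and Havcr2 (-4.45 to -3.25) without any array but IL-2 array 2. Only 3 Ly49 genes were bright enough to test, and Klra7 was higher by 1.89 ± 0.44, a call lost under quantile normalization and without either IL-15 array or IL-2 array 1 (1.49 to 2.28). Genes of the Klr families are close copies of each other, so their probe sets may share signal.

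The core genes of the killing machinery did not pass the test. Gzma was at 15.85, 16.10 and 16.06 in IL-2, against 15.94 and 15.99 in IL-15 (-0.04 ± 0.27, adjusted p = 0.927). Gzmb was at 15.65, 15.66 and 15.74 and at 15.53 and 15.68 (-0.08 ± 0.26, adjusted p = 0.832). Prf1, which encodes perforin, was at 14.33 to 15.23 and at 13.89 in both IL-15 arrays (-0.96 ± 0.41, adjusted p = 0.131). The Gzma and Gzmb probe sets were bright, and whether their signal was saturated was not tested. On the WT arrays, 25 probe sets had a value above log2 16, up to 19.73. The summed level of the granule genes was 18.71 to 21.18 in IL-2 and 18.29 to 18.61 in IL-15. Of 31 granule genes, Serpinb1a, a protease inhibitor, was higher (1.26 ± 0.29), and Gzmn (-2.74 ± 0.60) and the basophil protease gene Mcpt8 (-3.88 ± 0.91) were lower, with a list median of -0.30. None of these 3 calls held: each was lost without either IL-15 array, Gzmn (-3.26 to -2.23) also without IL-2 array 1, Mcpt8 (-4.50 to -3.26) also without IL-2 array 1 or 3, and Serpinb1a (1.19 to 1.37) also under both other scalings. The neighbouring granzymes Gzmd, Gzme, Gzmf and Gzmg, named here after their values were seen, had differences of -2.68, -3.38, -3.87 and -3.59 that did not pass, and as close copies they may share signal.

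Among secreted factors, calls were more often lower than higher, but the list medians were near 0. Of 18 cytokine genes tested, 5 were lower and 3 higher, with a median of 0.003 and 9 members above and 9 below 0. Of 7 chemokine genes, 3 were lower and 0 higher, with a median of -0.11 and 3 members above and 4 below 0. The called shares were 44.4% and 42.9%. Among all genes tested, 25.7% were called, 9.95% lower and 15.8% higher. Osm, a cytokine of the IL-6 family and a STAT5 target, was at 11.77, 11.001 and 11.49 in IL-2, against 7.89 and 7.69 in IL-15 (-3.63 ± 0.38, adjusted p = 0.00388), and its call held. Lif, of the same family, was at least 3.32-fold lower (adjusted p = 0.0125), Tnf was lower by -2.35 ± 0.56, and the chemokine genes Ccl4 and Ccl3 by -2.18 ± 0.40 and -1.61 ± 0.30. Ltb, Tgfb3 and Il16 were higher by 2.21 ± 0.54, 2.20 ± 0.37 and 1.80 ± 0.35. Ifng was at 9.86, 9.89 and 10.23 and at 9.19 and 9.83, and did not pass (-0.48 ± 0.37, adjusted p = 0.359). Among receptors for migration, Gpr183, which guides cells to oxysterols, was at 9.69, 8.77 and 8.86 in IL-2, against 12.83 and 13.27 in IL-15 (3.94 ± 0.46, adjusted p = 0.00492), a call that held. Lif was lost without IL-15 array 2 (-3.99 to -2.89), Tgfb3 without IL-15 array 1 (1.85 to 2.55), Tnf without IL-15 array 1 and IL-2 arrays 1 and 2 (-3.02 to -1.68), Ltb without IL-15 array 2 and IL-2 arrays 1 and 3 (1.57 to 2.86), and Ccl4 (-2.39 to -1.97), Ccl3 (-1.79 to -1.43) and Il16 (1.62 to 1.97) without either IL-15 array.

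Genes of amino acid supply were lower more often than those of any other pathway list. Of 36 genes for the synthesis and transport of amino acids and for the ATF4 response to their shortage, 24 were lower and 0 higher in IL-15, with a median of -1.59 against 0.18 over all genes tested. Nupr1, a small nuclear protein induced by ATF4, was at 7.88, 7.83 and 9.08 in IL-2, against 3.40 and 3.27 in IL-15, at least 9.59-fold lower (adjusted p = 0.00474). Slc6a9, a glycine transporter, was at least 15.5-fold lower (adjusted p = 0.00477), and Shmt1, which passes carbon from serine to folate, at least 38.1-fold (adjusted p = 0.0118). With Cth, they were the members with the lowest differences. Other probe sets of Shmt1 were lower by much less (-1.99, -0.74 and -0.66), so its size rests on its brightest probe set. Atf4 itself was not called (-0.46). The calls of 4 of the 24 held whichever array was left out, Cth, Nupr1 and Slc6a9 among them. After centring and quantile normalization, 26 and 27 members were lower.

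The amino acid response element reads TGATGNAA on either strand, a form chosen after the values of this list were seen. The promoter of Nupr1 is printed as the member above that holds it, on the minus strand at chr7:126625421-126625720 (RefSeq, GRCm38.p6), with its match, which lies on the opposite strand, in capitals.
Nupr1: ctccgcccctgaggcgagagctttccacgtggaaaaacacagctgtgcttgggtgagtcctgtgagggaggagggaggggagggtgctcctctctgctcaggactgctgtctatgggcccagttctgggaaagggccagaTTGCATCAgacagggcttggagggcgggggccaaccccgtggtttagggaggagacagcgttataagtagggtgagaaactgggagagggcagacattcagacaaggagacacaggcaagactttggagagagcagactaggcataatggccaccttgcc
The letters stood in the promoters of 7 of the 19 lower members with a promoter in the table (36.8%), in 2 of the 11 other members, and in 2.72% of tested genes with a promoter. The 7 were Aars, Asns, Chac1, Gars, Got1, Nupr1 and Slc1a4.

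Ribosome assembly and the MYC network came next. Of 44 genes, 23 were lower and 2 higher, with a median of -1.28. Mycn was at 12.17, 12.04 and 12.47 in IL-2, against 7.91 and 8.18 in IL-15 (-4.18 ± 0.31, adjusted p = 0.00263), and Myc was lower by -1.43 ± 0.32 (adjusted p = 0.0232). Polr1b, a subunit of the polymerase that makes ribosomal RNA, was at 9.80 to 9.90 and at 5.70 and 6.59 (-3.72 ± 0.40, adjusted p = 0.00451). Rrp12 and Nop16, which act in building ribosome precursors, were lower by -2.84 ± 0.31 and -2.89 ± 0.51. The 2 higher genes, Mxd4 (2.13 ± 0.47) and Mxd1 (1.66 ± 0.45), encode antagonists of MYC. The calls of Mycn, Polr1b and Rrp12 held. Myc (-1.59 to -1.31) was lost without either IL-15 array, Mxd4 (1.92 to 2.44) also without IL-2 array 1, Mxd1 (1.45 to 1.94) without any array but IL-2 array 3 and under both other scalings and the mean of its probe sets, and Nop16 without IL-15 array 1 or IL-2 array 1 (-3.44 to -2.34).

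Among cell cycle genes, calls in the G1/S list were lower and calls in the mitosis list were higher. Of 41 G1/S genes, most of them for copying DNA, 10 (24.4%) were lower and 0 higher in IL-15, with a median of -0.80, beside 9.95% lower among all genes tested. Of 40 mitosis genes, 5 (12.5%) were higher and 0 lower, with a median of 0.85, a share below the 15.8% higher among all genes tested. Ccne1, which encodes cyclin E1, was at 12.55, 12.23 and 12.27 in IL-2, against 9.57 and 9.95 in IL-15 (-2.59 ± 0.31, adjusted p = 0.00503). The replication-licensing gene Cdc6 was lower by -2.67 ± 0.55 (adjusted p = 0.0185) and Cdc45 by -2.98 ± 0.72 (adjusted p = 0.0273). Mki67, the proliferation antigen Ki-67, was at 10.99, 11.33 and 10.21 in IL-2, against 12.54 and 12.74 in IL-15 (1.79 ± 0.48, adjusted p = 0.0373), and the kinetochore gene Cenpf was higher by 3.07 ± 0.65 (adjusted p = 0.0196). Ccne1 alone of these held. Cdc6 was lost without IL-15 array 1 or IL-2 array 1 (-3.23 to -2.12), Cdc45 without IL-15 array 1, IL-2 array 1 or IL-2 array 2 (-3.80 to -2.17), and Cenpf (2.58 to 3.35) without either IL-15 array and Mki67 (1.48 to 2.04) also without IL-2 array 1. After centring and quantile normalization, 2 mitosis genes were higher, and Mki67 lost its call under centring.

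Inhibitors of the cell cycle differed in both directions. Cdkn1b, which encodes p27, was at 8.38, 8.19 and 8.57 in IL-2, against 10.66 and 11.23 in IL-15 (2.57 ± 0.35, adjusted p = 0.00651). Cdkn1a, which encodes p21, was at 13.93, 13.42 and 14.20 and at 11.53 and 10.48 (-2.85 ± 0.53, adjusted p = 0.0139). Cdkn2a was at least 6.21-fold lower and Cdkn2b lower by -2.43 ± 0.45. Foxo1 (1.89 ± 0.48) and Klf2 (at least 2.17-fold), factors of lymphocyte quiescence, were higher. In all, 7 of 27 genes of the list were higher and 4 lower. Cdkn1b held. Cdkn1a was lost without IL-15 array 2 or IL-2 array 1 (-3.37 to -2.32), Cdkn2a without IL-15 array 1 (-3.72 to -3.12), Cdkn2b without either IL-15 array (-2.72 to -2.15), Foxo1 without any array but IL-2 array 3 (1.64 to 2.18) and Klf2 under centring and without any array but IL-15 array 2 (1.63 to 3.37).

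Sugar and lipid metabolism had more lower than higher genes. Of 34 glycolysis and hypoxia-induced genes, 8 were lower and 2 higher. Hk2, the hexokinase that commits glucose to glycolysis, was at 11.84, 11.12 and 10.88 in IL-2, against 7.62 and 8.18 in IL-15 (-3.38 ± 0.48, adjusted p = 0.00707), and the lactate transporter gene Slc16a3 was at least 8.05-fold lower. Pdk1, which encodes an inhibitor of pyruvate dehydrogenase, was higher by 2.45 ± 0.35. Of 39 respiratory chain genes, 3 (7.69%) were lower and 0 higher, with a median of -0.14, a share below the 9.95% lower among all genes tested. Of 23 cholesterol genes, 9 were lower and 1, the exporter gene Abca1, was higher (2.39 ± 0.60). Hsd17b7, an enzyme of sterol synthesis, was at 11.80, 11.61 and 11.57 and at 9.26 and 8.38 (-2.84 ± 0.41, adjusted p = 0.00757), and its call held. Fatty acid genes were split, with 6 of 22 lower and 3 higher. Fads2, a desaturase, was lower by -3.77 ± 0.62 and Fabp5, a fatty acid carrier, by -4.18 ± 0.77, while Scd1, at 14.72, 11.66 and 14.50 in IL-2, was lower by -4.60 ± 1.31. Hk2 was lost without IL-15 array 1 (-3.67 to -3.10), Slc16a3 without IL-15 array 2 (-4.69 to -3.92), Fads2 without the same array (-4.33 to -3.21), Fabp5 without IL-2 array 1 (-5.12 to -3.23), Pdk1 without either IL-15 array (2.28 to 2.63), Abca1 without any array but IL-2 array 3 (1.85 to 2.93) and Scd1 without any array but IL-2 array 2 (-5.58 to -3.94). The sterol response letters TCACCCCAC stood in 0 of the 7 lower cholesterol genes with a promoter in the table. They stood in 1 of the 11 other members, Hmgcs1, and in 0.551% of all promoters. With letters this rare and 7 promoters, the absence says nothing about the list.

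The interferon-stimulated genes that were called were higher in IL-15 with 1 exception. Of 36 tested, 13 were higher and 1 lower, with a median of 0.82, and 11 and 10 were higher under centring and quantile normalization. Gbp2, a guanylate-binding protein, was at 9.02, 9.07 and 9.46 in IL-2, against 11.98 and 11.81 in IL-15 (2.71 ± 0.31, adjusted p = 0.00474). Irgm1, an immunity-related GTPase, was at 7.44, 7.64 and 7.41 and at 9.74 and 9.83 (2.29 ± 0.27, adjusted p = 0.00492). Ifit2, which binds viral RNA, was higher by 3.21 ± 0.53. The exception was Bst2, which encodes the virus-tethering protein tetherin, at 9.83, 9.99 and 9.49 in IL-2, against 5.27 and 5.92 in IL-15 (-4.17 ± 0.39, adjusted p = 0.00307). Mx1, Rsad2, Oas2 and Ifit1 were below log2 5 in both cultures. The calls of Gbp2, Irgm1 and Bst2 held, and that of Ifit2 was lost without either IL-15 array (2.98 to 3.59).

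The promoters of Gbp2 (plus strand, chr3:142620413-142620712) and Irgm1 (minus strand, chr11:48871371-48871670) are shown, from RefSeq on GRCm38.p6, as those of the higher genes above with the interferon response letters GAAANNGAA on either strand, in capitals. The 2 matches of Irgm1 overlap each other.
Gbp2: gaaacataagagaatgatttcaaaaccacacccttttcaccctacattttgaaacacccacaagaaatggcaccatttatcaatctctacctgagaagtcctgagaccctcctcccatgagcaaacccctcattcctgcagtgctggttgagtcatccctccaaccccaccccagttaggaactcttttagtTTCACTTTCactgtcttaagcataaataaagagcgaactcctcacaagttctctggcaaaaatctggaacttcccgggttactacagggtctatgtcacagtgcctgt
Irgm1: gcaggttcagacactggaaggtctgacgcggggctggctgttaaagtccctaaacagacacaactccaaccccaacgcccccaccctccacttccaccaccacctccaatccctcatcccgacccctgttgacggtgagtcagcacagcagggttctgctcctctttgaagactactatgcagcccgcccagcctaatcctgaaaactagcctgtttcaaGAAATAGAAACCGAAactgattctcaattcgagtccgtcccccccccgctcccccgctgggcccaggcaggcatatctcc
The letters stood in 6 of 12 higher members with a promoter (50%) and in 7 of 14 other members, Bst2 among them, against 8.39% of tested genes with a promoter. Holding the letters thus did not set the higher members apart from the rest of the list.

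GIMAP GTPases, lymphocyte proteins linked to the survival of resting cells, were higher without exception. All 8 genes, whose promoters lie within 124 kilobases of chromosome 6 (GRCm38.p6), were called, with a median of 2.51. Gimap7 was at 9.03, 9.46 and 9.22 in IL-2, against 11.66 and 12.07 in IL-15 (2.63 ± 0.33, adjusted p = 0.00543), and Gimap5 had the highest difference (3.71 ± 0.79, adjusted p = 0.0202). Under each of the other scalings 7 of the 8 were called. Gimap7 was 1 of 2 members whose call held, while Gimap5 was lost without either IL-15 array (3.12 to 4.29).

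Genes of TGF-beta signalling, which restrains NKC, were higher in 9 of 23 cases and lower in 2, with a median of 0.96. The receptor gene Tgfbr1 was at 7.81, 9.04 and 8.37 in IL-2, against 11.59 and 12.24 in IL-15 (3.51 ± 0.55, adjusted p = 0.00908). Tgfbr3 was higher by 3.87 ± 0.87 and the signal transducer Smad3 by 1.84 ± 0.30. Of 13 integrin genes, Itga4 (3.81 ± 0.53, adjusted p = 0.00705) and Itgb1 (1.26 ± 0.30), which together form VLA-4, were higher and 0 were lower. This higher share of 15.4% was near the 15.8% higher among all genes tested. After centring and quantile normalization, 1 and 2 integrin genes were lower. None of the calls of Tgfbr1, Tgfbr3, Smad3, Itga4 and Itgb1 held. Tgfbr1 was lost without IL-15 array 2 (3.18 to 3.84), Itga4 without IL-15 array 1 (3.42 to 4.01), Tgfbr3 without IL-2 array 1 or 2 (2.73 to 5.01), Smad3 without either IL-15 array (1.73 to 1.96) and Itgb1 without any array but IL-2 array 2 (1.20 to 1.398). Smad3 (0.77) and Itgb1 (0.64) were also lost with the mean of a gene's probe sets.

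Genes of cell death and stress were split. In the BCL2 and apoptosis list, 4 of 25 were higher and 3 lower, a called share of 28% that was near the 25.7% of all genes tested. Birc2, an inhibitor of apoptosis, was at 7.90, 8.02 and 7.61 in IL-2, against 10.48 and 10.95 in IL-15 (2.87 ± 0.34, adjusted p = 0.00492), and the caspase gene Casp6 was higher by 2.31 ± 0.30. Bcl2l1, which encodes BCL-XL, was lower by -1.82 ± 0.39 as Bcl2 was higher. Of 26 chaperone genes, 7 were lower and 1 higher, with Hyou1 at 10.74 to 11.10 and at 8.71 and 8.66 (-2.21 ± 0.28, adjusted p = 0.00567). Of 30 ERK response and immediate early genes, 8 were lower and 2 higher, with the ERK phosphatase genes Dusp4 (-2.88 ± 0.46) and Dusp6 (-2.02 ± 0.59) among the lower and Rgs2 (3.17 ± 0.49) and Klf6 (1.99 ± 0.35) higher. The calls of Birc2, Casp6 and Hyou1 held. Those of Bcl2l1 (-1.96 to -1.59), Rgs2 (2.87 to 3.45) and Klf6 (1.76 to 2.22) were lost without either IL-15 array, Dusp4 without IL-15 array 2 (-3.22 to -2.55) and Dusp6 without any array but IL-2 array 3 (-2.40 to -1.65).

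**Figure D4:**
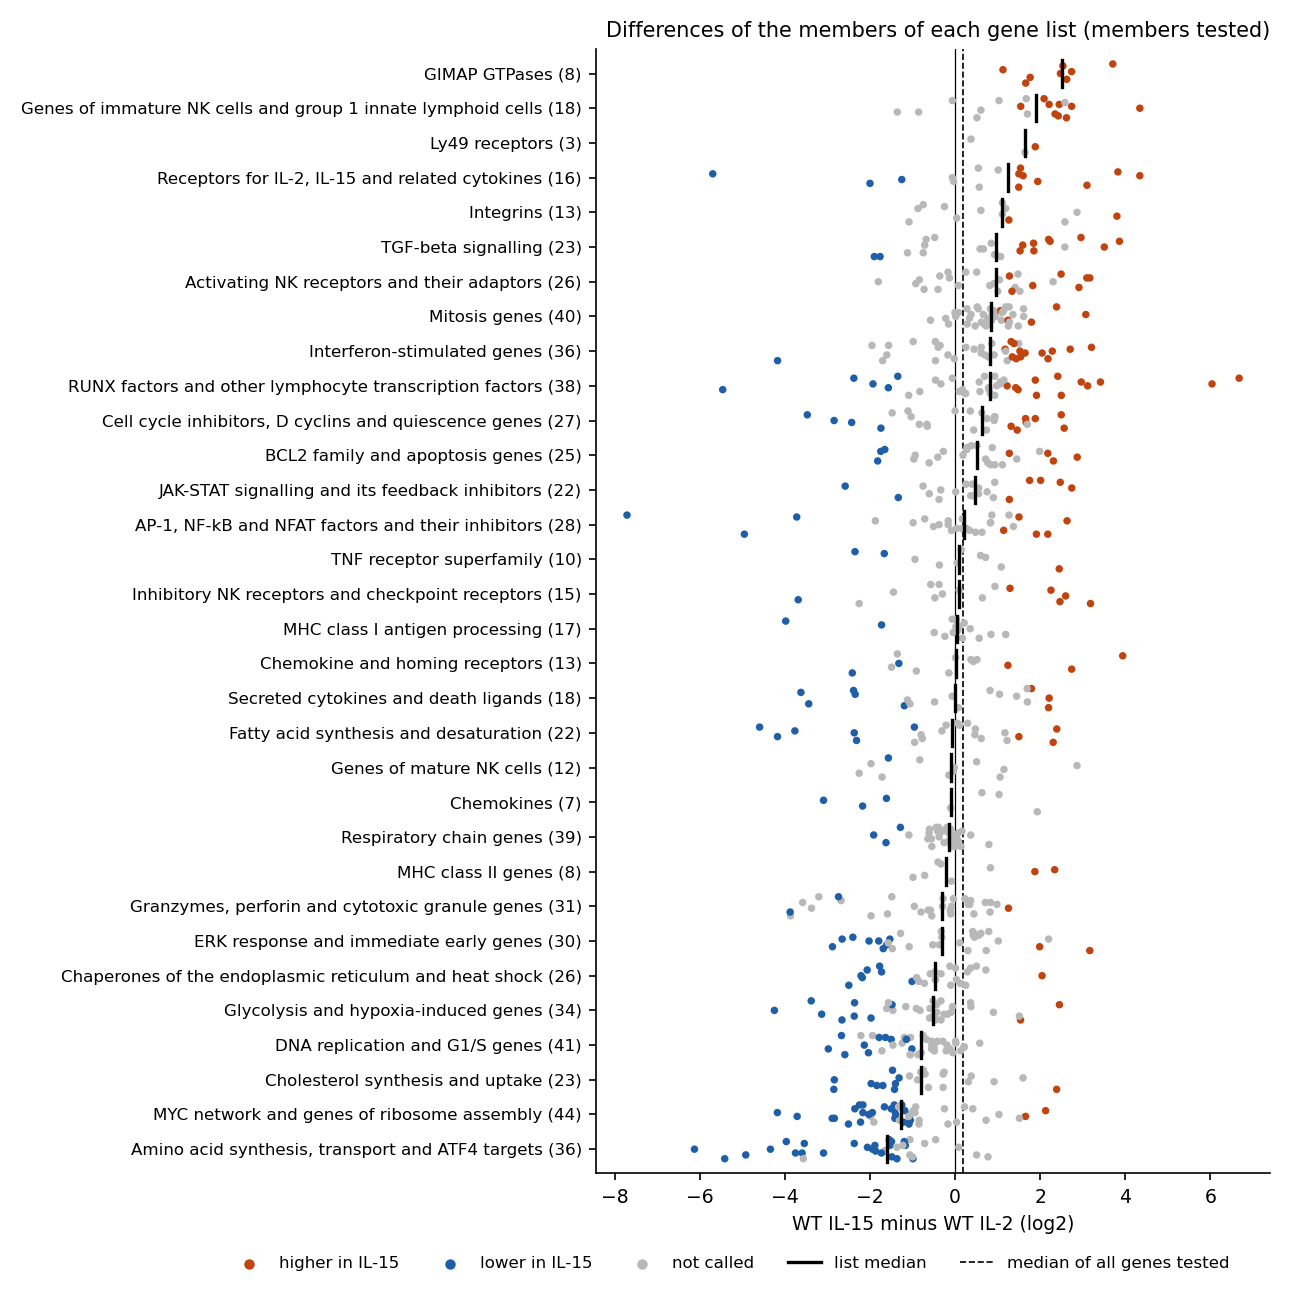
Difference between WT IL-15 and WT IL-2 (log2, x axis) for every tested member of each gene list (rows, with the number tested), coloured by call, with a bar at the list median and a dashed line at the median of all genes tested, 0.18. The lists run from the amino acid genes at a median of -1.59 to the GIMAP genes at 2.51.

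Some of the genes that the study tied to the growth of activated cells differed between the cultures, and others did not pass the test. Slc16a1, a transporter of lactate, was at 12.56, 12.54 and 12.01 in IL-2, against 9.80 and 10.21 in IL-15 (-2.36 ± 0.36, adjusted p = 0.00849). Tnfrsf9, which encodes the costimulatory receptor 4-1BB, was lower by -1.67 ± 0.40 and the factor gene Myb by -1.35 ± 0.36. Higher were the adaptor gene Grap (2.19 ± 0.28), Tspan32 (at least 1.48-fold), the lipid phosphatase gene Inpp4b (2.43 ± 0.54), and Kit, Runx1 and Smad3 as given above. Il2ra and Myc, which the study also named in this connection, were lower, as given above. Fhl2 (-0.14 ± 0.42), Rab27b (0.36 ± 0.45), Itgae (0.61 ± 0.81), Pik3cg (0.92 ± 0.65) and Styk1 (0.53 ± 0.44) did not pass. Dimmer probe sets of Pik3cg (1.96) and Rab27b (1.21 and 0.75) had larger differences. A second probe set of Tspan32 was lower in IL-15 by -0.93. With the mean of a gene's probe sets, Tspan32 (0.88) and Smad3 (0.77) lost their calls. Whichever array was left out, Tspan32 kept its call, while Slc16a1 was lost without IL-15 array 1 (-2.57 to -2.16), Grap without IL-15 array 2 (2.03 to 2.35), Inpp4b without either IL-15 array or IL-2 array 1 (2.16 to 2.78), and Tnfrsf9 (-1.92 to -1.53) and Myb (-1.59 to -1.11) without any array but IL-2 array 2.

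Whether the difference between the cultures itself differed with Runx3 was tested on the KO minus WT differences of the 5 numbered pairs. No gene was called (0 of 9110, 0%), with 1083 at an unadjusted p under 0.05 in limma and a smallest adjusted p of 0.0547. The standard error of the KO minus WT difference was 0.54 for Fads3 and 1.10 for Bcat1, and the test does not show that WT and KO responded alike. Among the 30 genes with the largest WT differences, the lowest adjusted p belonged to Fads3 (0.0547), Cth, Dhrs3 and S1pr3 (0.0671 each) and B4galnt2 (0.0687). These 30 were chosen for their WT difference, which favours a smaller difference in KO. Over all genes tested, Cd163l1, Sh3d19 and Ret shared the adjusted p of Fads3. Cd163l1 differed by 0.51 in WT and -4.58 in KO, Sh3d19 by 0.28 and -6.51, and Ret by 4.17 and 0.11. Fads3 differed by -5.71 between the WT cultures and by -0.17 between the KO cultures. Cth differed by -6.13 and -0.01, S1pr3 by -5.43 and 0.02, and Dhrs3 by 5.42 and 0.12. The KO means were below log2 5 in both IL-2 and IL-15 for Fads3 (1.86 and 1.69), Cth (2.66 and 2.65) and S1pr3 (1.93 and 1.95). At such levels a further lowering in IL-15 could not be seen. Those of Dhrs3 were 8.77 and 8.89. At the other end, Bcat1 differed by -7.74 in WT and -8.27 in KO, Zbtb32 by -5.47 and -5.57, Esr1 by 4.54 and 4.68 and Il7r by 4.34 and 4.50. For Il2ra the values were -5.70 and -2.23 (adjusted p = 0.198). WT and KO arrays of a pair share a mean set by the earlier processing, so these values are given side by side only.

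**Figure D5:**
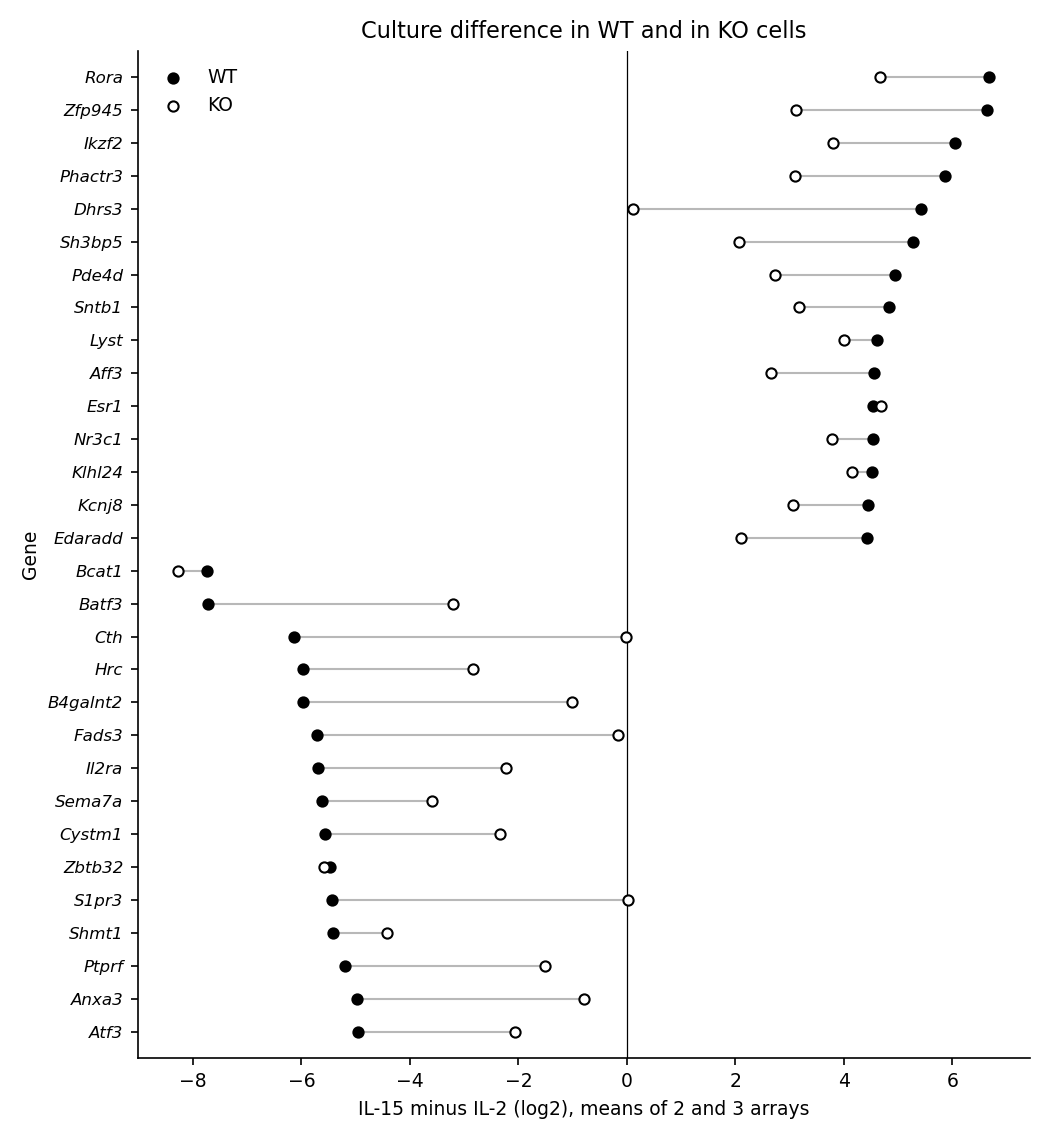
Difference between IL-15 and IL-2 (log2, x axis; means of 2 and 3 arrays) in WT cells (filled circles) and KO cells (open circles) for the 30 genes with the largest called WT differences. The KO values lie near 0 for Dhrs3, Cth, Fads3 and S1pr3 and next to the WT values for Bcat1, Zbtb32 and Esr1. The KO means of Cth, Fads3 and S1pr3 are below log2 5 in both cultures. No gene passed the test of the difference.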

How the data were processed

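NKC RNA was hybridised to Affymetrix mouse arrays with 45101 probe sets. The deposited values are log2 signals that the authors obtained by GC-RMA in Partek (versions not given in the sources used here). In addition, the WT and KO values of a numbered pair had the same sum in every pair of a cytokine (largest difference 0.00014), a step the sources used here do not describe. Array medians of the 5 WT arrays were 3.23 to 3.33, and 34.6% to 36.7% of probe sets reached log2 5. The number of arrays limits the precision.

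Gene names came from the annotation of the platform (34958 with 1 symbol, 932 with several, 9211 not listed). WT IL-15 was compared with WT IL-2 in limma 3.58.1 (lmFit, eBayes; R 4.3.3) on the 5 WT arrays, with 3 residual degrees of freedom. A WT deviation from its group mean is -0.5 times that of its pair difference, so residual variances were multiplied by 2 before eBayes. A call needed an adjusted p (Benjamini-Hochberg over all genes tested) below 0.05 and at least 1.5-fold. If the mean of the dimmer culture was below log2 5, its place in the fold was taken by log2 5, written as "at least". All p-values of genes are adjusted p of limma, and they measure the spread between these arrays, after removal of pair means. Errors are standard errors of the difference (3 and 2 arrays). The steps were tested on simulated data.

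Gene lists are given by counts and medians, with no set test. The genes named are the 15 highest and 15 lowest calls, up to 4 called members of a list in each direction, and a fixed set that includes the genes the study tied to proliferation. Other genes named were chosen after their values were seen. The members, the lists and the doubling were chosen with earlier results of these data known. Alternatives were other scalings, filters, variance estimates, probe set summaries, a replicate block and leaving out each array.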

Additional observations from a re-analysis of the deposited data

How the results depend on the processing

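The count of 2344 called genes (1438 higher, 906 lower) stayed within 1.5 times under centring (2518), quantile normalization (2533), a filter on the WT mean (2365), the mean of a gene's probe sets (2511), an intensity trend (2519), a 2-fold limit (2267) and with X and Y genes kept (2433). It was 4254 (2595 higher, 1659 lower) without doubling the variance, 4360 (2651 and 1709) with all 10 arrays in 4 groups, 3717 (2260 and 1457) at an unadjusted p, 4139 (2665 and 1474) over single probe sets, and 1281 (664 higher) with no filter on low values. Leaving out 1 array gave 363 to 2139 genes (174 to 1421 higher, 169 to 750 lower), where the lone array left in a culture is assumed to vary like the others. Of the 185 called genes named by the rule, none changed direction under these alternatives, and 55 were called whichever array was left out. Lost were 94 with no filter on low values, where more genes share the adjustment, 14 with the mean of probe sets, 13 under quantile normalization, 10 under centring and 1 with the replicate block.

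Some genes that were not called changed sign near 0. Il2rb was at 0.095 and Il15ra at 0.30 with the mean of probe sets, and with a replicate block Il2rb was at 0.26, Eomes at 0.080 and Itgae at -0.026. Leaving out 1 array, Il2rb ranged from -0.22 to 0.26, Il15ra from -0.13 to 0.025, Gzma from -0.12 to 0.0095, Eomes from -0.20 to 0.080, Fhl2 from -0.42 to 0.027 and Itgae from -0.026 to 0.96. The cause was not tested.

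Replicate numbers were not shown to pair WT IL-15 with WT IL-2 arrays: the deviations of equally numbered arrays correlated at -0.02 (number 1) and 0.33 (number 2). The fit with a replicate block called 2824 genes (1748 higher, 1076 lower). The test of the difference between KO and WT gave 0 genes with 5 pairs, 1083 at an unadjusted p, and 0 to 1 when a pair was left out, the 1 being Klrb1b without IL-15 pair 2. Signal over background limits 302 calls with 1 culture under log2 5 and 11 with both.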
